A study of Mus musculus with 17 samples.

Results

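The comparison is between the NOX2 inhibitor peptide gp91-ds-tat and its control peptide sgp91-ds-tat in wild-type (WT) mice. Its members are 10 of the 17 libraries of the series, chosen by their labels: 5 from WT mice given the inhibitor and 5 from WT mice given the control peptide. All genes with enough counts were compared, which left 18753 of 42687. RNA was sequenced from microvessels isolated from the brain cortex of mice 10 to 11 months old. Both groups received 10 mg/kg of peptide into the peritoneum at intervals of 2 days for 2 weeks, so every mouse was injected and no untreated mouse is part of the comparison. The other 7 libraries are of the same age from APP/PS1 mice, a transgenic model of amyloid deposition, 5 with inhibitor and 2 with control peptide. In the labels the treatments read NOX2 and SC, taken here as inhibitor and control, and neither sex nor strain is given. The extraction protocol also speaks of surgery and of cortices of the operated side, which no other label explains. Nothing in the labels says that libraries of a group came from separate animals, so the p-values below measure the spread between these libraries, which may be technical.

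NOX2 is an NADPH oxidase, an enzyme that moves electrons across a membrane to make superoxide. Its catalytic subunit gp91phox, encoded by Cybb, sits in the membrane with p22phox, and the enzyme becomes active when cytosolic subunits and the small GTPase Rac join them. The peptide gp91-ds-tat carries a stretch of gp91phox that blocks this assembly and a tat sequence that brings it into cells, and the control is its scrambled form. The drug thus acts on the assembly of the enzyme and not on the messenger RNA of its subunits. In brain vessels, superoxide removes nitric oxide and NOX2 is studied as a source of vascular oxidative stress.

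The libraries held 7316503 to 17862965 counts, and the 2 groups overlapped in depth. A floor of 3 counts, below which a level is not told from 0, came to 0.174 to 0.390 CPM by library, the CPM being the count of a gene relative to the scaled library total, and it covers counting error only. Levels compared between genes are given as CPM per kilobase of exon (CPM/kb). On that scale the median of 8 endothelial markers was 62.4, of 8 pericyte markers 17.6 and of 8 astrocyte markers 17, so the cells named in the labels were present. Neuronal markers at 43.0 and oligodendrocyte markers at 30.7 were present too, against 4.49 over all genes tested. The largest differences between libraries did not follow the peptide. Markers of choroid plexus epithelium, the secretory lining of the ventricles, summed to 38.2, 179, 4430, 8580 and 2270 CPM in control libraries 1 to 5 and to 3180, 250, 251, 3900 and 4920 CPM in inhibitor libraries 1 to 5. The Y-linked genes Ddx3y, Eif2s3y, Kdm5d and Uty summed to 294 to 355 CPM in control libraries 2, 3 and 5 and inhibitor libraries 2 and 5, to 0 to 0.715 CPM in control libraries 1 and 4 and inhibitor libraries 1 and 4, and to 22.6 CPM in inhibitor library 3. Xist, the RNA of the inactive X chromosome, was at 5614 to 10170 CPM in control libraries 1 and 4 and inhibitor libraries 1, 3 and 4, at 593 and 525.9 CPM in control libraries 2 and 3, and at 16.5 to 122.9 CPM in the other 3. Whether these libraries came from both sexes or from pooled animals is not given in the labels. The 8 most variable genes at 5 CPM or more were Xist, the Y-linked Uty, Ddx3y, Eif2s3y and Kdm5d, and Ttr, Mfrp and Tmem72 of choroid plexus. The first component over the 1000 most variable genes held 40.0% of the variance and its values overlapped between the peptides, as did those of the second component with 18.5%. On the third, with 9.11%, inhibitor library 2 stood at 22.7 and the other 9 libraries between -8.24 and 8.73, so results below are also given without it where it decides them.

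**Figure D1:**
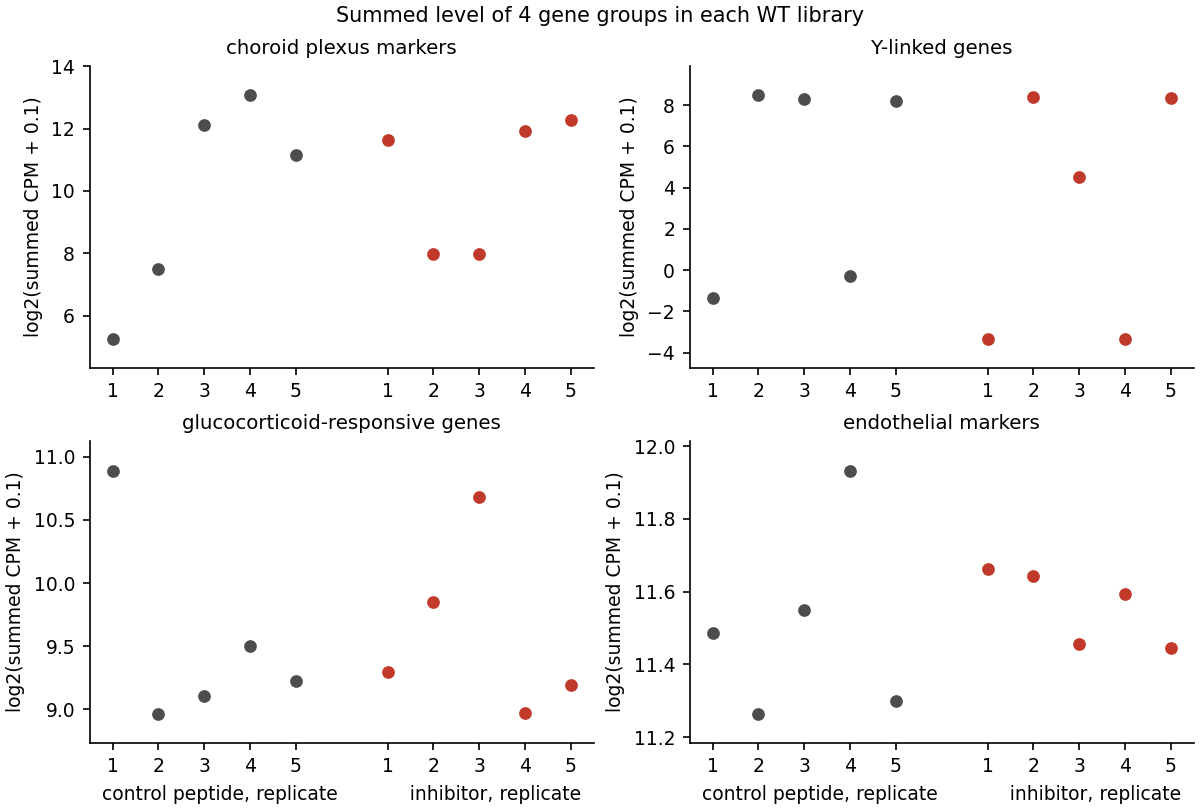
Each point is 1 WT library and shows the summed level of a gene group as log2(summed CPM + 0.1), with control libraries in grey on the left and inhibitor libraries in red on the right. Choroid plexus markers run from 38.2 to 8580 CPM within the control group alone, and glucocorticoid-responsive genes are highest in control library 1 (1900 CPM) and inhibitor library 3 (1640 CPM).

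No gene passed an adjusted p of 0.05 between inhibitor and control peptide in WT microvessels. The count was 0 of 18753 genes (0%) with edgeR's quasi-likelihood test and Benjamini-Hochberg adjustment, and it was also 0 with DESeq2 and with limma-voom. The smallest adjusted p was 1. At an unadjusted p under 0.05, edgeR gave 118 genes higher (0.629%) and 134 lower (0.715%) with inhibitor, where a uniform spread of p-values would give 938 in both directions together. Control library 4 moved this count most. Without it 396 of 18820 genes (2.1%) stood higher and 338 (1.8%) lower at that p. The counts given below without that library are to be read against those shares, and the counts with all libraries against 0.629% and 0.715%. Of all genes tested, 50.6% were higher with inhibitor, whatever their p. Differences were small for most genes: the 95% interval of the log2 difference lay within 2-fold in both directions for 16720 genes (89.2%) and within 1.5-fold for 12949 (69.1%). The median standard error was 0.16 on the log2 scale.

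**Figure D2:**
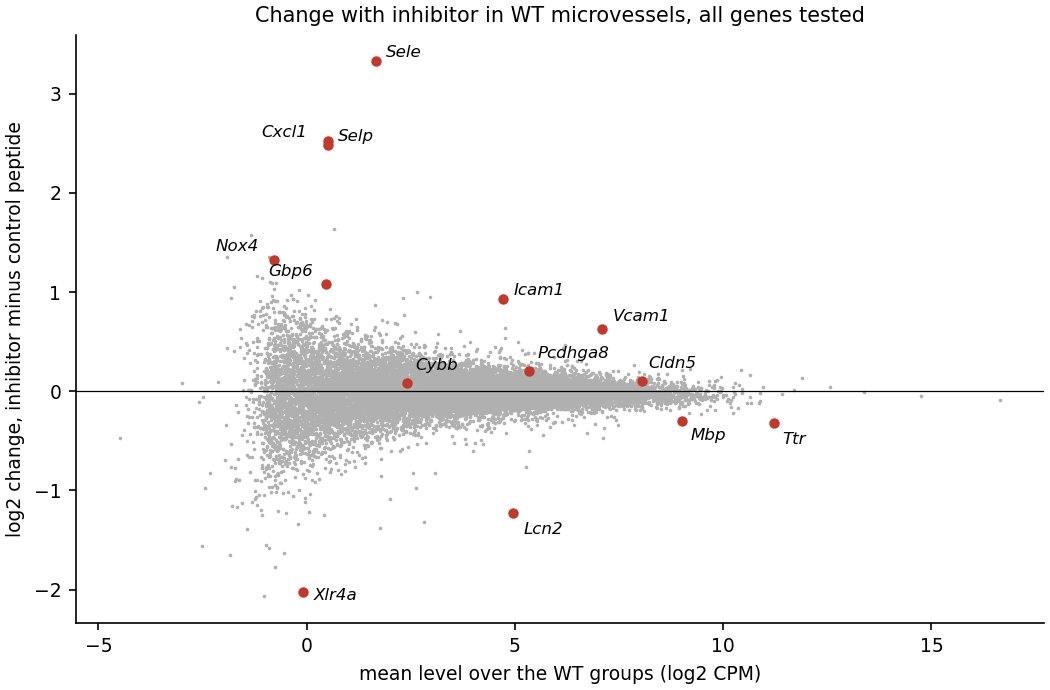
Each grey point is 1 of the 18753 genes tested, with its mean level in the WT groups (log2 CPM) against its log2 difference, inhibitor minus control peptide, and the genes named are in red. Sele, Cxcl1 and Selp stand highest at log2 differences of 3.33, 2.52 and 2.48 and low levels, Cybb lies at 0.09 and Cldn5 at 0.11.

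The RNA of the subunits of the inhibited enzyme did not differ between the peptides beyond the spread of the libraries. Cybb, the catalytic subunit, was at 4.74, 3.46, 5.79, 7.77 and 3.87 CPM in control libraries 1 to 5. With inhibitor it was at 5.05, 6.42, 4.58, 8.32 and 3.26 CPM. The groups overlapped almost entirely, with the highest library in the inhibitor group and the lowest there too. The mean was 5.13 ± 1.73 CPM with control peptide and 5.53 ± 1.93 CPM with inhibitor (SD, n = 5 each), and the mean log2 CPM differed by 0.096 (exact permutation test, two-sided, p = 0.746). The sign of this difference turned when 1 library was left out: it was -0.064 without inhibitor library 4 and -0.026 without control library 2.

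Cyba encodes p22phox, the membrane partner of gp91phox, and averaged 7.06 ± 2.43 CPM with control peptide and 7.53 ± 1.22 CPM with inhibitor. Its log2 difference was 0.08, with a 95% interval from -0.39 to 0.54. Ncf1 and Ncf4 encode the cytosolic subunits p47phox and p40phox. Ncf1 had a log2 difference of -0.20 (-0.56 to 0.17) and Ncf4 of -0.09 (-0.85 to 0.68), which was -0.47 without inhibitor library 2. The intervals of Cybb, Cyba, Ncf1 and Ncf4 all lay within 2-fold. Rac1, the widely expressed GTPase of the complex, was at 163 ± 36.0 CPM with control peptide and 164 ± 22.2 CPM with inhibitor, a log2 difference of 0.01. Rac2, the form of blood cells, was at 1.46 and 1.30 CPM and its log2 difference was -0.12 (-0.99 to 0.75).

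The other catalytic subunits were at the edge of detection. Nox4, which makes mostly hydrogen peroxide and is the main form of many endothelial cells, was at 0.231, 0.419, 0.305, 0.447 and 0.209 CPM in control libraries 1 to 5. In inhibitor libraries 1 to 5 it was at 0.187, 0.778, 1.35, 1.30 and 0.544 CPM. Inhibitor libraries 2 to 5 stood above every control library and inhibitor library 1 below all of them. These levels rest on 64 counts over the 10 libraries, most control libraries were close to the floor, and the log2 difference of 1.33 (0.15 to 2.50) had an unadjusted p of 0.0292 and an adjusted p of 1 in edgeR's test. Nox1, best known from colon epithelium and smooth muscle, was at 0.405, 1.15, 1.22, 0.268 and 1.57 CPM with control peptide and at 0.748, 0.389, 0.359, 0.390 and 0.466 CPM with inhibitor. Control libraries 2, 3 and 5 were highest, and the log2 difference was -0.90 (-1.79 to -0.01) on 75 counts in all, with an adjusted p of 1 in edgeR's test. Noxo1, the organizer subunit that works with Nox1, differed by -0.10 on the log2 scale. Nox3, Duox1, Duox2 and Noxa1 had 24 counts or fewer over the 10 libraries and were not tested. Of the 14 NADPH oxidase genes listed, 10 were tested, 5 of them higher and 5 lower, with a median log2 difference of -0.04 beside 0.00 for all genes tested. The sign of that median depended on single libraries: it was 0.17 without control library 4, with 7 of 10 higher, and 0.11 without inhibitor library 3. At an unadjusted p under 0.05 stood 1 higher and 1 lower, both among the genes of lowest count, beside 0.629% and 0.715% of all genes.

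**Figure D3:**
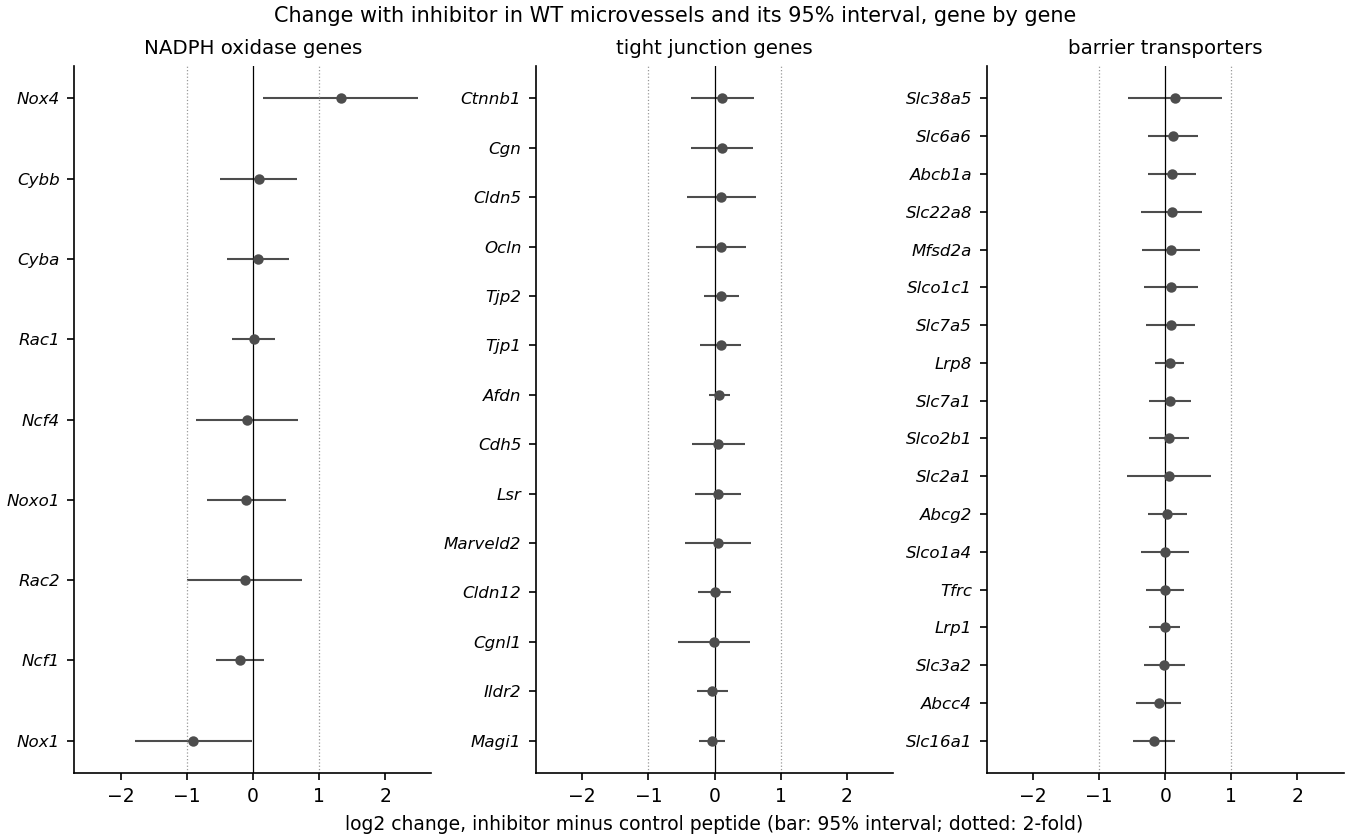
Points are log2 differences, inhibitor minus control peptide, and bars their 95% intervals, for 9 of the 10 NADPH oxidase genes tested and for the 14 tight junction genes and 18 barrier transporters, with dotted lines at 2-fold. Nox4 (1.33) and Nox1 (-0.90) stand away from 0 with wide bars, and all 14 tight junction and 18 transporter intervals lie inside the dotted lines.

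Genes that answer oxidative stress differed by less than 2-fold between the peptides, interval included. Nrf2, encoded by Nfe2l2, switches on enzymes that make glutathione and remove peroxide, and Keap1 holds it back. All 25 antioxidant and Nrf2 target genes listed were tested; 17 were higher and 8 lower with inhibitor (68.0% higher, beside 50.6% of all genes), none at an unadjusted p under 0.05. Their median log2 difference was 0.04 and every interval lay within 2-fold. The median was -0.02 without control library 2 and 0.13 without control library 4, where 20 of 25 were higher and 2, Prdx1 and Slc7a11, stood at that p. Hmox1, the heme-degrading enzyme induced by oxidants, averaged 2.82 ± 0.56 CPM with control peptide and 2.77 ± 0.79 CPM with inhibitor, a log2 difference of -0.02 (-0.45 to 0.41). Sod2, the mitochondrial superoxide dismutase, was at 78.2 ± 7.49 and 78.6 ± 7.47 CPM, with the narrow interval of -0.17 to 0.19. Slc7a11, the cystine importer that feeds glutathione synthesis, had a log2 difference of 0.27 (-0.15 to 0.69) and Fth1, the ferritin heavy chain that stores iron, of -0.29 (-0.71 to 0.13) and -0.06 without control library 1.

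The genes that draw neutrophils and other leukocytes to the vessel wall gave the highest estimates of the comparison, and 1 library carried them. Selectins catch passing leukocytes, Icam1 and Vcam1 hold them through integrins, and Cxcl1 is a neutrophil-attracting chemokine. Sele, the E-selectin of activated endothelium, was at 0.405, 0.210, 0.813, 0.0893 and 1.57 CPM in control libraries 1 to 5 and at 0.280, 27.7, 0.180, 0.130 and 0.233 CPM in inhibitor libraries 1 to 5. Inhibitor library 2 stood far above all others, and the other 4 inhibitor libraries lay within the range of the controls. Most of these levels, apart from inhibitor library 2, lie near or below the floor. The fitted log2 difference was 3.33 (0.88 to 5.77), with an unadjusted p of 0.0104 and an adjusted p of 1 in edgeR's test. With limma-voom, which weights each library by how well it fits, it was -0.44. Without inhibitor library 2 Sele did not pass the filter on low counts. Selp, the P-selectin stored in endothelial granules and platelets, was at 0.116, 0.105, 0.406, 0.804 and 0.941 CPM with control peptide and at 0.187, 10.8, 0.718, 0.130 and 0 CPM with inhibitor. The same library was again the high one. Its log2 difference was 2.48 (0.23 to 4.73) over all libraries and -0.77 without inhibitor library 2, and -0.72 with limma-voom.

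Cxcl1 was at 0.868, 0.210, 0.406, 0.447 and 0.105 CPM with control peptide and at 0.187, 9.47, 1.35, 0.780 and 0.544 CPM with inhibitor. Inhibitor library 2 was highest, library 3 lay above every control, and the other 3 lay within the control range. The log2 difference was 2.52 (0.83 to 4.21), with an unadjusted p of 0.00576 and an adjusted p of 1 in edgeR's test, and it was 1.14 with limma-voom. Cxcl1 did not pass that filter either without inhibitor library 2. Vcam1 was at 148, 61.0, 113, 139 and 76.3 CPM with control peptide and at 107, 350, 173, 124 and 71.8 CPM with inhibitor, and Icam1 at 36.5, 7.54, 17.4, 19.7 and 9.73 CPM and at 14.7, 97.6, 37.2, 14.2 and 9.79 CPM. Inhibitor library 2 was the highest of all 10 for both genes, inhibitor library 3 lay just above all controls for both, and the other 3 lay within their range. The log2 difference of Vcam1 was 0.62 (-0.09 to 1.33) and 0.15 without that library, and that of Icam1 was 0.93 (-0.15 to 2.01) and 0.04.

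**Figure D4:**
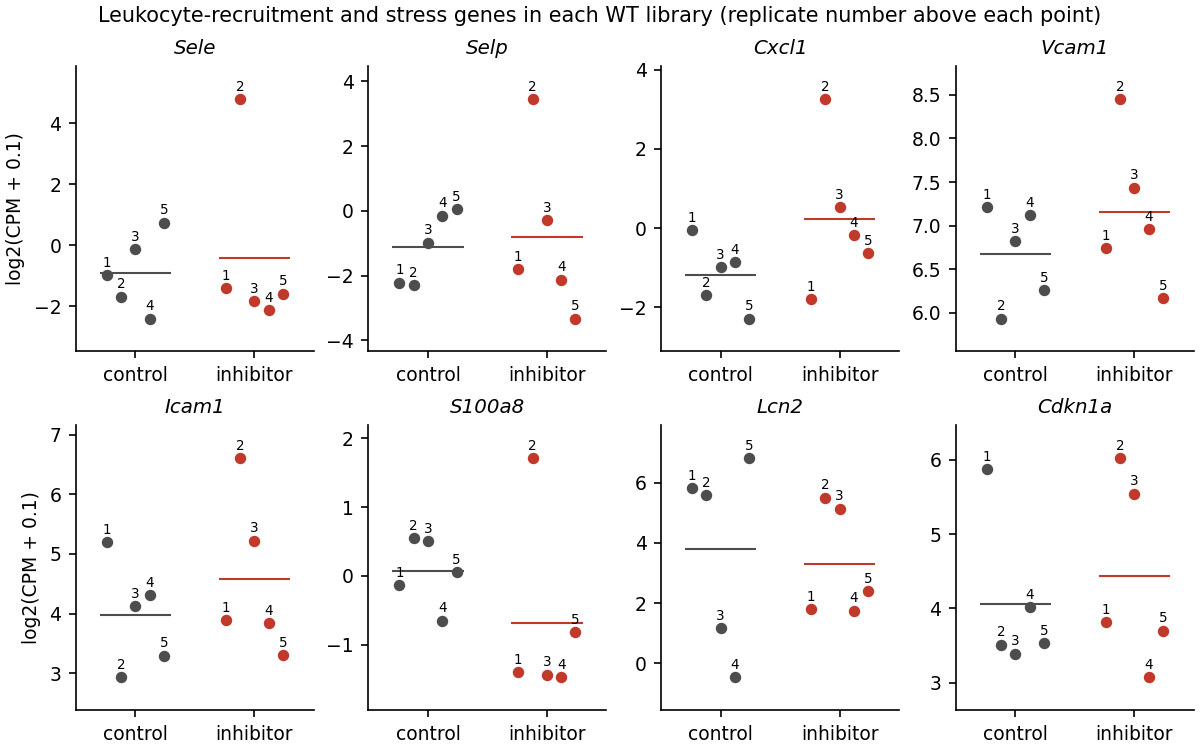
Each point is 1 WT library as log2(CPM + 0.1), labelled with its replicate number, with control libraries in grey, inhibitor libraries in red and the line at the mean of the log values. Inhibitor library 2 is the highest of all 10 for Sele, Selp, Cxcl1, Vcam1, Icam1, S100a8 and Cdkn1a, but not for Lcn2.

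Promoters of Cxcl1 and Sele are shown because both genes are well known targets of NF-kB and had the highest estimates together. They come from RefSeq (assembly GRCm38.p6, 250 bases before to 50 after the gene's start, plus strand), at chr5:90890995-90891294 for Cxcl1 and chr1:164047984-164048283 for Sele, and capitals mark matches to GGGNNTTTCC, an NF-kB-like motif, on either strand.
Cxcl1: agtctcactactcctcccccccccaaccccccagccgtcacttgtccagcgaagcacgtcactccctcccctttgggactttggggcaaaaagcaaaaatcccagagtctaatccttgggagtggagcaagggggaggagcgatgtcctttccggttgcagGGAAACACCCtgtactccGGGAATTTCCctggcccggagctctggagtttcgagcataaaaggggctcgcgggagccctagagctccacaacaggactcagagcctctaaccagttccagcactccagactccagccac
Sele: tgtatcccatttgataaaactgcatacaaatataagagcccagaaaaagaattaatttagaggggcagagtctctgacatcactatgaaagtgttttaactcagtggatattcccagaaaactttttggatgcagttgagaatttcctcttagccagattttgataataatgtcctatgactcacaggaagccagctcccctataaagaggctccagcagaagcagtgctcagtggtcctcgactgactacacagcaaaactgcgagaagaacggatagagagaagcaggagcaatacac
The Cxcl1 window held 2 matches, the first 89 bases before the start and the second, on the other strand, close behind it. The Sele window held none, which says only that these letters are not in it. The motif occurred in 535 of 32851 mouse promoter windows of that length (1.63%).

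The wider groups around these genes showed the same dependence. Of 16 endothelial adhesion molecules 15 were tested and 13 were higher with inhibitor (86.7%, beside 50.6% of all genes), with a median log2 difference of 0.15. Sele and Selp alone stood at an unadjusted p under 0.05, beside 0.629% of all genes higher at that p. Without inhibitor library 2, 14 were tested, 9 were higher, none stood at that p, and the median was 0.07, while without control library 4 all 15 were higher, 3 at that p, and the median was 0.22. Pecam1, Cd34 and Podxl, constant surface proteins of endothelium, had log2 differences of 0.09, 0.00 and -0.06. In bulk RNA, fewer cells of a type and less RNA per cell cannot be told apart, here and for every group below.

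Acute-phase genes of endothelium, which answer cytokines of inflammation, were split. Of 20 listed, 18 were tested and 13 were higher, with a median log2 difference of 0.13 that became -0.11, with 7 of 18 higher, without inhibitor library 2. Lcn2, an iron-binding protein released in inflammation, was at 56.5, 47.5, 2.13, 0.625 and 113 CPM with control peptide and at 3.37, 45.2, 35.0, 3.25 and 5.13 CPM with inhibitor. High and low libraries occurred in both groups, 3 against 2 of 5. The log2 difference of -1.23 had an interval from -3.02 to 0.57, and ran from -1.89 without inhibitor library 2 to -0.52 without control library 5. Lrg1, a secreted glycoprotein of the acute phase, followed the same libraries, at 17, 12.4, 2.64, 2.95 and 19.2 CPM and at 3.18, 8.69, 10.2, 5.98 and 2.49 CPM. Inhibitor library 2 was highest of all for Ptgs2, the inducible cyclooxygenase, at 119 CPM against 28.8 to 51.0 CPM in the other 9 libraries. It was also highest for Ackr1, the chemokine-binding receptor of venules, at 101 CPM against 19.8 to 44.0 CPM.

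Of 20 chemokine and NF-kB genes 12 were tested, and 9 were higher with inhibitor, with a median log2 difference of 0.11. Without inhibitor library 2 Cxcl1 was not tested, 6 of 11 were higher and the median was 0.01. The median was -0.01 without control library 2 and 0.18 without inhibitor library 5. Cxcl2, Ccl2, Ccl4, Ccl7, Cxcl9, Il1b, Il6 and Tnf, the main cytokines of acute inflammation, had 49 counts or fewer over the 10 libraries and were not tested. Nfkb2 and Relb, partners in the alternative NF-kB pathway, had log2 differences of 0.41 (-0.10 to 0.92) and 0.26 (-0.14 to 0.66). Cx3cl1 and Cxcl12, the 2 most abundant chemokines of the list, differed by -0.04 and -0.06.

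Neutrophil markers were scarce in every library. Of 12 listed, 8 were tested; their median level was 0.558 CPM/kb, and Ly6g, a defining surface marker, had 0 counts over the 10 libraries. The markers summed to 15.1 to 19.9 CPM with control peptide and to 11.6 to 15.5 CPM in 4 inhibitor libraries, with 33.0 CPM in inhibitor library 2. S100a8, a calcium-binding protein abundant in neutrophils, was at 0.810, 1.36, 1.32, 0.536 and 0.941 CPM with control peptide and at 0.280, 3.18, 0.269, 0.260 and 0.466 CPM with inhibitor. The inhibitor group held both the highest library and the 4 lowest. The log2 difference was 0.01 (-1.27 to 1.29) over all libraries and -1.55 without inhibitor library 2, with an unadjusted p of 0.0244 and no gene past adjustment in edgeR's test. S100a9, its partner, went from 0.36 to -1.07 in the same way, and the median of the tested neutrophil markers from 0.03 to -0.88. The first median is over 8 markers and the second over 6. Cxcr2 and Mmp8 did not pass the filter on low counts without inhibitor library 2, so the medians are not of the same genes. Most of these levels lie at a few counts per library, and the part of neutrophils or of any other cell in the values of inhibitor library 2 was not tested.

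Interferon-stimulated genes lay mostly higher with inhibitor, each by a small amount that did not pass the adjusted threshold. They act against viruses and are switched on by interferon through a complex that holds Stat2 and Irf9. All 20 listed were tested and 18 were higher with inhibitor (90.0%, beside 50.6% of all genes), with a median log2 difference of 0.27 beside 0.00. At an unadjusted p under 0.05 stood 2, both higher, and none passed the adjusted threshold in edgeR's test. Ifit3, which binds viral RNA complexes, was at 8.97, 8.07, 8.84, 13.2 and 7.43 CPM with control peptide and at 14.8, 12.1, 11.0, 17 and 8.78 CPM with inhibitor. Control library 4 lay among the inhibitor libraries, and inhibitor library 5 among the controls. The log2 difference was 0.44 (0.05 to 0.83). Irf9, the DNA-binding part of the interferon-activated complex, was at 22.1, 22.2, 25.1, 33.3 and 20.5 CPM with control peptide and at 34.5, 34.8, 24.3, 33.5 and 27.0 CPM with inhibitor. Control library 4 was again the high control, inhibitor library 3 lay below control library 3, and the log2 difference was 0.32 (0.04 to 0.61). Irf7, the amplifier of the response, differed by 0.40 (-0.17 to 0.97), and Mx1 was the lowest of the list at -0.42 (-1.08 to 0.24).

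Gbp6, a guanylate-binding protein of interferon-treated cells, had the smallest p of all genes higher with inhibitor. It was at 0.636, 0.943, 1.02, 1.43 and 0.418 CPM with control peptide and at 1.5, 1.62, 1.35, 2.60 and 2.41 CPM with inhibitor. Only control library 4 and inhibitor library 3 crossed, and the log2 difference of 1.08 (0.45 to 1.71) had an unadjusted p of 0.00193 and an adjusted p of 1 in edgeR's test. Gbp6 has close copies beside it in the genome, so its count is uncertain.

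Without control library 4 the interferon list had 19 of 20 higher, 6 of them at an unadjusted p under 0.05 (2.1% of all genes there), with a median of 0.45. Without inhibitor library 4, the highest of its group, the median was 0.12. Control library 4 had the highest sum of the list among the controls, at 393 CPM against 219 to 308 CPM. In inhibitor libraries 1, 2, 4 and 5 the sum was 368, 384, 432 and 265 CPM, with inhibitor library 3 the lowest of the 5. Control library 4 was also the highest of the 5 controls for choroid plexus, endothelial, smooth muscle and fibroblast markers. With the level of the choroid plexus markers as a covariate the median of the interferon list was 0.27, and with that of the Y-linked genes 0.24. Endothelial, smooth muscle and fibroblast levels were not used as covariates, so their part in this median was not tested. Without inhibitor library 2 it was 0.23, with 17 of 20 higher.

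The Ifit3 promoter is shown because Ifit3 had the smallest p of this list and interferon acts on it through a known promoter element. The window is chr19:34583279-34583578 (RefSeq, GRCm38.p6, plus strand, 250 bases before to 50 after the start), and capitals mark matches to TTTCNNTTTC, searched on both strands.
Ifit3: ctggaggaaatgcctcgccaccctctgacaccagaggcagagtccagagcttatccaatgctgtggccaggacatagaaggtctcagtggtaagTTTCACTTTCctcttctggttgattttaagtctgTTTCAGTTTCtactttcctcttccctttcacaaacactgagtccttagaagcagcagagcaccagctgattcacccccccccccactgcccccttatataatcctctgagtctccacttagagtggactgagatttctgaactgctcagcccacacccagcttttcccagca
It held 2 matches, the first 156 bases before the start, and 1131 of 32851 promoter windows (3.44%) held at least 1.

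Blood-brain barrier genes all had intervals within 2-fold, and none stood at an unadjusted p under 0.05. The median standard error was 0.173 for the tight junction genes and 0.167 for the transporters, beside 0.157 for all genes tested. Cldn5 encodes the main claudin that seals endothelial tight junctions. It was at 174, 241, 258, 383 and 232 CPM with control peptide and at 334, 233, 226, 300 and 292 CPM with inhibitor. The groups overlapped, with control library 4 the highest and control library 1 the lowest, and the log2 difference was 0.11 (-0.41 to 0.62). Ocln, another strand protein, differed by 0.10 (-0.28 to 0.48), Tjp1, the scaffold ZO-1, by 0.09 (-0.22 to 0.40), and Cdh5, the cadherin of endothelial junctions, by 0.06 (-0.35 to 0.46). All 14 tight junction genes were tested, 11 were higher, and the median was 0.07. Of 18 barrier transporters 12 were higher, with a median of 0.07. The medians were 0.02 and 0.01 without inhibitor library 2. Without control library 4 they were 0.19, with 13 of 14 higher, and 0.14, with 16 of 18 higher. Slc2a1, the glucose transporter of the barrier, differed by 0.06 (-0.58 to 0.70), Mfsd2a, the lipid transporter that restrains transcytosis, by 0.09 (-0.34 to 0.53), and Abcb1a, the drug efflux pump P-glycoprotein, by 0.10 (-0.26 to 0.47). Slc16a1, a lactate carrier, had the largest difference of the transporters at -0.17 (-0.49 to 0.15).

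Nos3, the endothelial nitric oxide synthase, was at 72.4, 76.7, 96.4, 149 and 74.4 CPM with control peptide and at 117, 120, 111, 122 and 99.6 CPM with inhibitor. Each inhibitor library stood above 4 of the 5 controls, and control library 4 above them all. The log2 difference was 0.28 (-0.13 to 0.69) with all libraries and 0.51 without control library 4, with an unadjusted p of 0.00609 and an adjusted p of 1 there in edgeR's test. Of the 22 nitric oxide and vasoregulation genes 13 were higher, with a median of 0.03 and none at an unadjusted p under 0.05. The median was -0.03 without control library 5 and 0.16 without control library 4, where 17 were higher and 4 stood at that p. Edn1, the vasoconstrictor endothelin, differed by -0.03 (-0.48 to 0.42), and the nitric oxide receptor subunits Gucy1a1 and Gucy1b1 by -0.05 and -0.05. Among 20 VEGF, angiopoietin and Notch genes 18 were higher (90.0%, beside 50.6% of all genes), with a median of 0.05. Without inhibitor library 2, 12 of 20 were higher with a median of 0.02, and without control library 4 all 20 were, with a median of 0.19. Kdr and Flt1, the VEGF receptors, differed by -0.03 and 0.04. Of 16 coagulation and fibrinolysis genes 12 were higher, with a median of 0.09, which was 0.02 without control library 2 and 0.24 without control library 4, where 2 stood higher and 1 lower at an unadjusted p under 0.05. Vwf, the platelet-binding protein of endothelium, differed by 0.22 (-0.28 to 0.72).

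Stress and activity genes followed single libraries. The 18 glucocorticoid-responsive genes summed to 1900 CPM in control library 1 and 1640 CPM in inhibitor library 3, and their median log2 difference was -0.06, with 8 of 18 higher. That median was 0.61 without control library 1 and -0.40 without inhibitor library 3. Fkbp5, the receptor chaperone induced by glucocorticoids, was at 65.7, 11.8, 11.4, 12.8 and 15.3 CPM with control peptide and at 17.4, 16.9, 95.8, 8.71 and 11.7 CPM with inhibitor. There was 1 high library in each group. Of 20 immediate early genes tested 14 were higher, with a median of 0.07 that was -0.03 without inhibitor library 2, -0.04 without control library 3 and 0.29 without control library 1. Of 24 nuclear genes of oxidative phosphorylation, the mitochondrial source of ATP, 14 were higher, with a median of 0.03 and every interval within 2-fold. That median ran from -0.01 without control library 2 to 0.09 without control library 4.

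**Figure D5:**
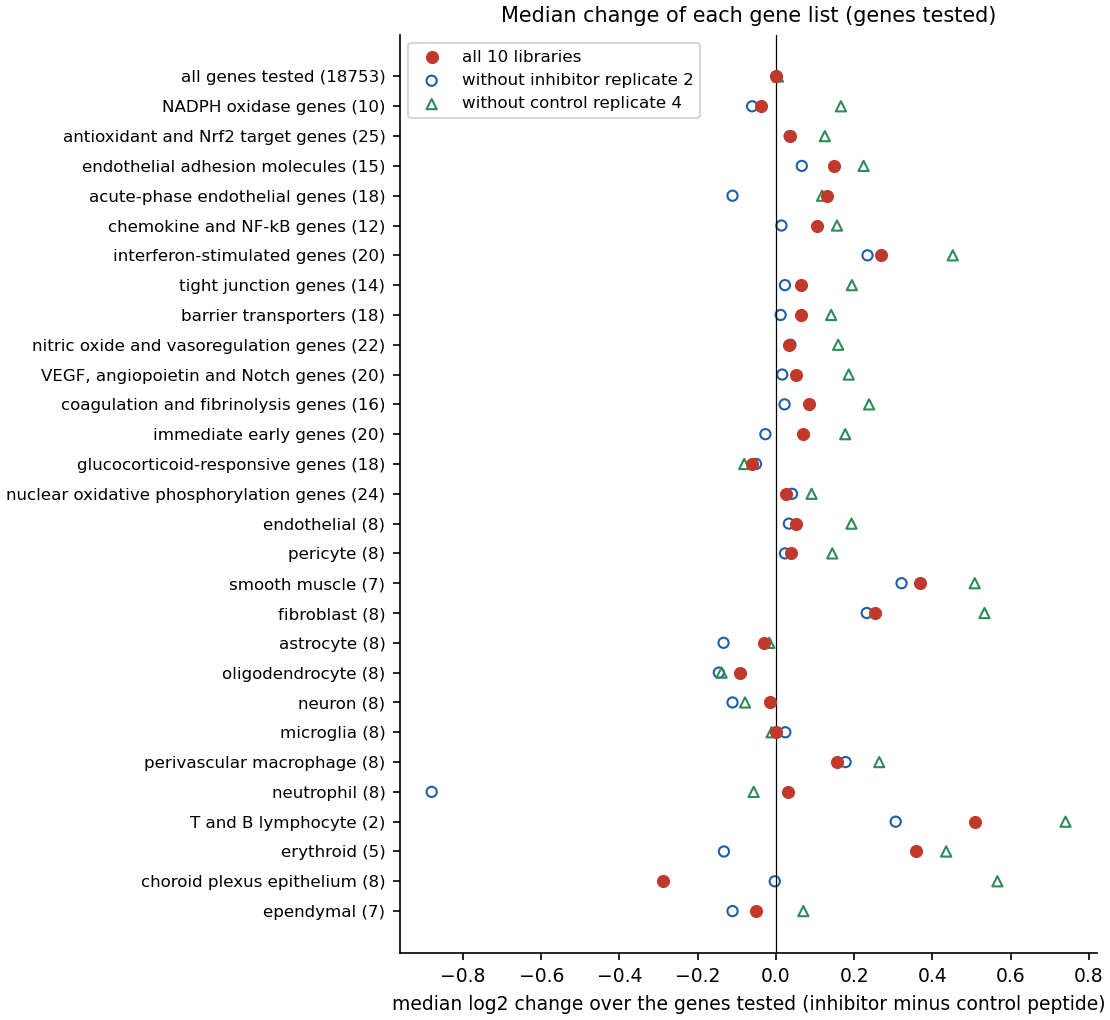
For each gene list (genes tested with all libraries in brackets) the red point is the median log2 difference over all 10 libraries. The open circle is the median without inhibitor library 2 and the triangle the median without control library 4. Without inhibitor library 2, 14 adhesion, 11 chemokine and NF-kB and 6 neutrophil genes were tested. Neutrophil markers go from 0.03 to -0.88 without inhibitor library 2, and interferon-stimulated and fibroblast genes from 0.27 to 0.45 and from 0.25 to 0.53 without control library 4.

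Mural and stromal markers were mostly higher with inhibitor, and myelin genes lower, all short of the adjusted threshold. Of 7 smooth muscle markers 6 were higher, with a median log2 difference of 0.37. Acta2, the smooth muscle actin, was at 57.6, 35.4, 68.9, 95.6 and 44.7 CPM with control peptide and at 57.6, 96.3, 82.3, 116 and 58.2 CPM with inhibitor. The groups overlapped, and the log2 difference was 0.44 (-0.08 to 0.96). Des, an intermediate filament of muscle, differed by 0.37 with an unadjusted p of 0.0507. All 8 fibroblast markers were higher, with a median of 0.25 and none at an unadjusted p under 0.05, and without control library 4 the median was 0.53 with 5 of 8 higher at that p (2.1% of all genes there). It was 0.18 without control library 2. Col1a2 and Col3a1, fibrillar collagens, differed by 0.35 (-0.10 to 0.79) and 0.38 (-0.22 to 0.97), the latter 0.71 without control library 4. Pericyte and endothelial markers had medians of 0.04 and 0.05, both -0.02 without control library 5, and 0.14 and 0.19 without control library 4.

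All 8 oligodendrocyte markers were lower with inhibitor, with a median of -0.09, while 50.6% of all genes were higher. At an unadjusted p under 0.05 stood 2 of them, beside 0.715% of all genes lower at that p. Without inhibitor library 2 the median was -0.15, with 1 of 8 higher, and without control library 1 it was 0.01. Mbp, a main protein of compact myelin, was at 474, 619, 571, 446 and 740 CPM with control peptide and at 400, 478, 477, 489 and 473 CPM with inhibitor. The 3 highest libraries were controls, and the others overlapped. Its log2 difference was -0.30 (-0.59 to -0.01), and that of Mobp, another myelin protein, was -0.34 (-0.67 to -0.01). Astrocyte, neuron and microglia markers had medians of -0.03, -0.02 and 0.00, and each took either sign when single libraries were left out. How far a different share of these cells in the preparations moved with the other groups was not tested.

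Ranked by p alone, the genes at the top were mostly of low level. Separation without overlap was rare: in 25 genes (0.133%) all 5 inhibitor libraries lay above all 5 controls, and in 17 (0.0907%) all lay below. A random split of the libraries into 5 and 5 separates a gene with a probability of 0.00794, both directions together. The shares found lie below that, so separation alone does not single out a gene. Pcdhga8, a gamma protocadherin of neuronal adhesion, was the most abundant gene among those with the smallest p. It was at 38.9, 38.7, 34.7, 37.6 and 38.7 CPM with control peptide and at 45.3, 46.0, 43.9, 41.5 and 40.7 CPM with inhibitor. The groups did not overlap, and the log2 difference of 0.21 (0.06 to 0.35) had an unadjusted p of 0.0077 and an adjusted p of 1 in edgeR's test. Members of its cluster share their last exons, so its count is uncertain. Rbm38, an RNA-binding protein induced by p53, was at 1.68 to 2.51 CPM with control peptide and 2.52 to 4.16 CPM with inhibitor, a log2 difference of 0.54 (0.13 to 0.94). Akr1b10, an aldo-keto reductase, differed by 0.33 (0.08 to 0.59), Dnase1l2, a DNA-cutting enzyme, by 0.45 (0.11 to 0.78), and Ubap1l by 0.56 (0.19 to 0.94).

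Among genes lower with inhibitor, Gm3636, a predicted protein-coding gene, had the smallest p of all. It was at 1.16, 1.26, 1.22, 1.43 and 1.67 CPM with control peptide and at 0.748, 0.843, 0.628, 0.260 and 0.466 CPM with inhibitor. The groups did not overlap, and the log2 difference was -1.12 (-1.73 to -0.51), with an unadjusted p of 0.00108 and an adjusted p of 1 in edgeR's test. Gm3636 belongs to a family of near copies and its count is uncertain. Adam21, a membrane metalloprotease, was also without overlap, at 1.70 to 2.93 CPM with control peptide and 0.648 to 1.56 CPM with inhibitor, a log2 difference of -0.84 (-1.44 to -0.23). Echdc2, a mitochondrial enzyme related to enoyl-CoA hydratases, differed by -0.37 (-0.64 to -0.10), Tas1r3, a subunit of sweet and umami taste receptors, by -0.69 (-1.20 to -0.19), and Shisa3, an inhibitor of Wnt and FGF receptors, by -1.04 (-1.79 to -0.28). The Shisa3 value was -0.66 without control library 4, its highest at 2.77 CPM, and -0.50 with limma-voom. Samd3, Fcrl1, a receptor-like protein of B cells, and Rbm3os, a transcript opposite Rbm3, differed by -0.89, -1.21 and -1.23. Xlr4a, of an X-linked family of near copies, had the lowest estimate of the named genes at -2.02 (-3.44 to -0.60), and -1.34 without control library 5, where it was highest at 3.87 CPM.

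The effect of the inhibitor in WT was tested against its effect in APP/PS1 mice, which shares no library with it. No gene differed past an adjusted p of 0.05 in edgeR's interaction test (0%), nor with DESeq2 or limma-voom, and 158 genes (0.843%) did at an unadjusted p under 0.05. Across the genes tested, the log2 differences in the 2 genotypes correlated weakly (Pearson 0.06, Spearman 0.14), which is a description only, since genes are not independent. The APP/PS1 controls are 2 libraries, which limits this comparison. For Cybb the log2 difference was 0.09 in WT and -0.35 in APP/PS1, and for Nox4 1.33 and -0.48, with unadjusted p for the interaction of 0.334 and 0.0513. Cxcl1 had 2.52 and -1.02, Pcdhga8 0.21 and -0.13, and Ifit3 0.44 and -0.20, with unadjusted p of 0.0308, 0.00864 and 0.0438 and adjusted p of 1 in edgeR's test. Cybb, Nox4, Cxcl1, Pcdhga8 and Ifit3 thus had opposite signs in the 2 genotypes, and other named genes went both ways. Gbp6 had 1.08 in WT and 0.42 in APP/PS1, Rbm38 0.54 and 0.23, and Fcrl1 -1.21 and -0.98, each with the same sign. Tas1r3 had -0.69 and 0.45, and Rbm3os -1.23 and 0.78, with opposite signs. The interferon-stimulated list had 18 of 20 members higher and a median of 0.27 in WT, and 14 of 20 and 0.05 in APP/PS1. The 8 fibroblast markers were all higher in WT, with 2 of 8 higher in APP/PS1. Of 7 smooth muscle markers 6 were higher in each genotype, with medians of 0.37 in WT and 0.20 in APP/PS1.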

How the data were processed

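Microvessels of mouse cortex were sequenced as stranded libraries after removal of ribosomal RNA, per the labels' protocols. The values used are raw counts of reads per gene, deposited by the authors for 42687 Ensembl IDs. The submitters' processing notes name cutadapt, STAR, HTSeq, DESeq2, mm10 and GRCh37 with no version or role, and how reads shared by similar genes were counted is not given in the sources used here. The table also holds 20 columns of values that match no sample analysed here, and they were not used.

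Symbols and exon lengths came from GENCODE for 42250 IDs, and 437 had none. Replicate numbers were given in accession order and only name libraries. No 2 libraries of a group were identical (chi-square per degree of freedom 5.04 to 45.2 over 20 pairs). Genes were kept by filterByExpr, scaled by TMM and tested with edgeR 4.0.16's quasi-likelihood test in R 4.3.3, with 1 mean per group over all 17 libraries, which then share 1 estimate of spread. P-values were adjusted over all 18753 genes by Benjamini-Hochberg, with a threshold of 0.05. Intervals are at 95%, from the fitted log2 difference and its standard error. The log2 CPM used for Cybb has a prior count of 2. CPM are not length-scaled unless written per kilobase. The scripts were tested on simulated data.

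The rule for named genes took 15 NADPH oxidase, adhesion, barrier and stress genes, the 8 smallest p-values in each direction, up to 3 genes at an unadjusted p under 0.05 and the largest difference from each of 14 pathway and 14 marker lists, and the 8 most variable genes. Other list members are named by role, and some are counted in their lists but not reported here by name. The members and lists were chosen with earlier results of these data known. Alternatives were DESeq2 1.42.0 and its size factors, limma-voom 3.58.1 with quality weights, no filter, WT libraries alone, a prior count of 0.5 and leaving out each library. The covariates for Y-linked and choroid plexus levels and the gene lists without inhibitor library 2 or control library 4 were added after seeing the data.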

Additional observations from a re-analysis of the deposited data

Results flagged for a closer look

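In 9 of the 88 sets of 5 libraries examined, 1 library stood apart by Dixon's ratio, its gap to the nearest library over the whole range being above 0.71. Chance gives about 1 in 20, or 4.4 of 88. The sets are not independent, so 9 cannot be read as an excess over 4.4. Sele is also counted among the adhesion molecules below, and S100a8 among the neutrophil markers. Inhibitor library 2 stood apart for 5 measures. Its Sele level was 4.80 log2 CPM against -1.76 to -1.17 in the other inhibitor libraries (ratio 0.909), and its S100a8 level 1.74 against -1.23 to -0.663 (0.808). Its mean log2 CPM was 6.38 against 5.13 to 5.47 over the endothelial adhesion molecules (0.729), 7.12 against 6.74 to 6.83 over the astrocyte markers (0.782) and 1.35 against -0.798 to -0.397 over the neutrophil markers (0.813).

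Control library 1 stood apart in its total of 17862965 counts (ratio 0.767), in the glucocorticoid-responsive genes at 6.28 against 4.27 to 4.64 mean log2 CPM (0.817) and in the microglia markers at 5.01 against 4.59 to 4.68 (0.783). Control library 4 did so in the NADPH oxidase genes, at 2.08 against 1.73 to 1.82 (0.723).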

How the results depend on the processing

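The count of genes past an adjusted p of 0.05 was 0 for the inhibitor effect in WT, and for its difference from APP/PS1, with DESeq2 and its size factors, limma-voom, no filter, both covariates and each library left out. It was also 0 with the WT libraries alone, which cannot give the difference. At an unadjusted p under 0.05 there were 118 genes higher and 134 lower of 18753 tested. Totals were 594 of 30805 with no filter and 711 of 18753 with limma-voom. With 1 library left out they ran from 191 of 18794 to 734 of 18820. The lowest came without control library 2 and the highest, 396 higher and 338 lower, without control library 4. DESeq2 gave 213 and its size factors 261, each of 18753, and the WT libraries alone 196 of 17476. The cause of these shifts was not tested. With all 10 libraries 25 of 18753 genes (0.133%) lay above and 17 (0.0907%) below the controls with no overlap. Without inhibitor library 2 there were 75 and 59, and without control library 4 there were 179 and 121. Leaving out any library raised both counts, to at least 44 above and 33 below. Part of each rise is automatic, since 4 libraries separate from 5 more easily than 5 from 5. The mean log2 difference of Cybb ran from -0.064 (without inhibitor library 4) to 0.262 (without inhibitor library 5) and was -0.026 without control library 2.

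Of the 67 named genes, 11 took the other sign with limma-voom, 8 without control library 4, 7 of 65 without inhibitor library 2, 5 with the Y-linked and 4 with the choroid plexus covariate. No paired analysis was possible because the labels give no replicate numbers. With 5 libraries a group the exact permutation test cannot go below 0.00794.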
